A study of Mus musculus with 3 samples.

Results

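The tetraspanins are a family of small membrane proteins that cross the membrane 4 times, with a short and a long loop outside the cell. They bind to one another and to partners such as integrins, immunoglobulin superfamily proteins and metalloproteases, and they sort these partners into membrane domains and vesicles. Individual members are used as markers of extracellular vesicles (Cd9, Cd81), as escorts of the protease Adam10 (the TspanC8 group) or as leukocyte antigens (Cd37, Cd53). Members were taken by gene symbol alone: every probe set with a single annotated symbol that is Tspan followed by a number, or Cd9, Cd37, Cd53, Cd63, Cd81, Cd82 or Cd151. This gave 25 genes with 56 probe sets, of 18193 genes in all. Of the 27 mouse genes with such a symbol in the gene table, Cd63 and Tspan7 were not analysed here.

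RNA of C3H10T1/2, a mesenchymal line from mouse, was read on Affymetrix arrays, with 1 array for each of 3 conditions. The cells carried a retroviral Venus-Mkx vector (the array labelled Venus-Mkx), carried the same vector with the fluorescent protein Venus only (Venus), or were not transduced (C3H10T1/2). Mkx encodes the homeobox factor Mohawk, and the comparison asks what changes in these cells when it is overexpressed; the paper's methods speak of independent clones for staining assays of such cells and do not say whether the arrays read clones or pools. With 1 array per condition no difference has a replicate check, and no p-value was computed.

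The deposited values are log2 probe set values. The floor was set at their median, 4.34, and values below it cannot be told from background. Each gene was represented by its probe set of highest mean, and 11169 genes with at least 1 array at or above the floor count as measured. The single Mkx probe set went against the label, with 2.71 on the array labelled Venus-Mkx, 7.43 on the Venus array and 6.88 on the C3H10T1/2 array. Whether it lies in the part of Mkx that the vector carries is not known, so it may check nothing. Interferon response genes differed between the conditions: all 7 listed genes with a probe set were at least 2-fold higher on the array labelled Venus-Mkx than on both controls, and 5 were at least 2-fold higher as read on the Venus array than on the C3H10T1/2 array, of which 3 (Ifit1, Ifit3 and Usp18) stayed past 2-fold with low values set to the floor. Their part in the differences given here was not tested. All 9 mesenchymal markers with a probe set reached the floor on each array, and their summed level was 15.58 on the array labelled Venus-Mkx, 15.48 on the Venus array and 15.40 on the C3H10T1/2 array, as log2. Of these 9, 2 were at least 2-fold higher on the array labelled Venus-Mkx than on both controls and 7 were neither. Over all measured genes 6.82% were higher. The 2 were Col1a1, a collagen chain, 2.53-fold from Venus and 3.23-fold from C3H10T1/2, and Thy1. Col1a2, Prrx1 and Twist1 were above both controls by less than 2-fold, and Pdgfrb lay between the controls. Fn1, Vim and Pdgfra were below both, Pdgfra by −0.69 from Venus and −1.01 from C3H10T1/2.

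Tspan8, Tspan2, Tspan12 and Tspan15 were higher and Tspan5 and Tspan14 were lower on the array labelled Venus-Mkx than on both control arrays, by at least 2-fold. Of the 25 tetraspanin genes, 19 were measured, and the other 13 of these lay within 2-fold of both controls. Over all measured genes, 6.82% were at least 2-fold above both controls and 5.34% were at least 2-fold below both, so 4 and 2 of 19 are small counts to set beside these shares. Tspan8 was measured through the array labelled Venus-Mkx only, so it could enter the list only as a higher gene. The median difference from Venus was 0.03 on the log2 scale for the 19 genes, against 0.00 for all measured genes, and 10 of the 19 were above Venus and 9 below. From C3H10T1/2 the median was 0.17, against 0.00 for all measured genes. The median size of the difference from Venus, regardless of sign, was 0.59 for the tetraspanins and 0.28 for all measured genes. Between the control arrays these sizes were 0.22 and 0.10, so the tetraspanins had the larger size there too. Both sets of differences share the array labelled Venus-Mkx, so they are not independent readings. In RNA from whole cultures, more cells that express a gene and more RNA per cell cannot be told apart.

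**Figure D1:**
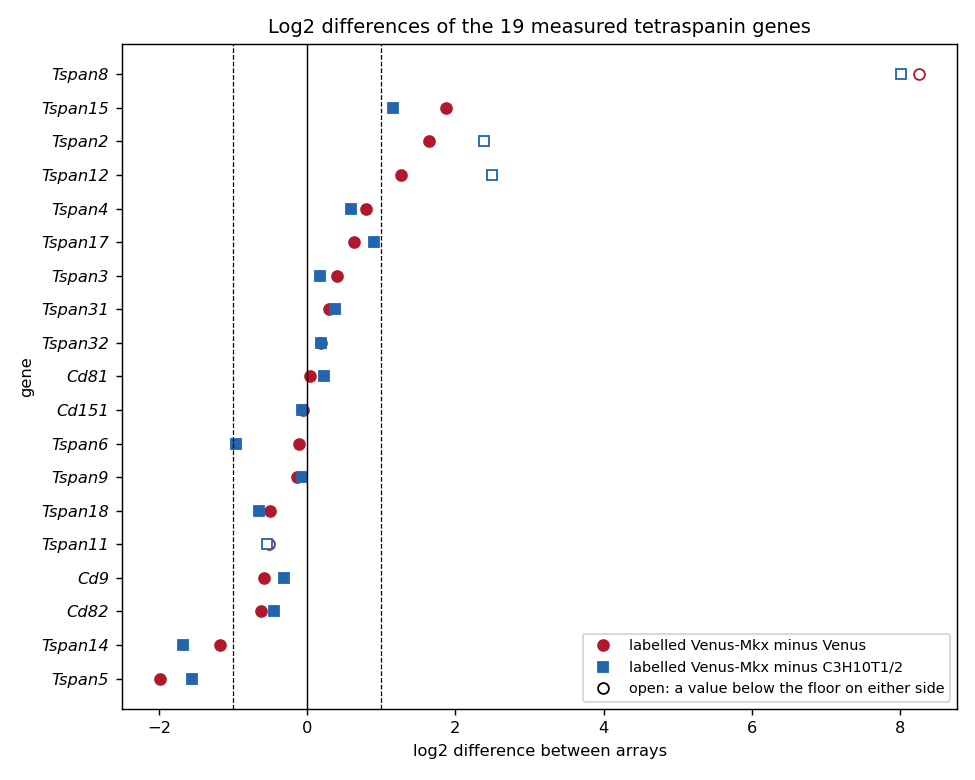
Log2 differences of the 19 measured tetraspanin genes (vertical axis, ordered by the difference from Venus) of the array labelled Venus-Mkx from Venus (circles) and from C3H10T1/2 (squares), 1 array per condition. Open symbols have a value below the floor of 4.34 on either side, dashed lines mark 2-fold, and the symbols of Tspan32 coincide. Tspan8 lies at 8.27 and 8.02 as read, and 13 genes lie within the dashed lines for both controls.

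Tspan8 encodes a tetraspanin best known from epithelia of the gut and from carcinomas. The probe set used, 1424649_a_at, read 10.53 on the array labelled Venus-Mkx, 2.26 on the Venus array and 2.51 on the C3H10T1/2 array. The controls lay below the floor, so the gene was at least 72.7-fold higher than either, and the difference as read, 8.27 from Venus, is not exact. All 5 Tspan8 probe sets read higher than on both controls: 4 of them reached the floor there and none did so on a control. The other 4 differed from Venus by 2.04 to 3.80 as read. The probe sets therefore gave the same direction and very different sizes. 1420017_at, the next brightest, read 7.35, 3.55 and 3.85 with the arrays ordered as before.

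Of 8 epithelial markers with a probe set, only Epcam, a cell adhesion protein, reached the floor. It read 7.60 on the array labelled Venus-Mkx, 7.03 on the Venus array and 6.74 on the C3H10T1/2 array, differences of 0.57 and 0.86. These values come from a probe set marked _x_at, a kind that may also read other transcripts. Cdh1, Krt8, Krt18, Krt19, Cldn4, Cldn7 and Esrp1 were below the floor on all 3 arrays. The summed level of the list, as log2 of the summed linear values, was 8.01 on the array labelled Venus-Mkx, 7.64 on the Venus array and 7.41 on the C3H10T1/2 array. This sum includes the values below the floor. The high value of Tspan8 thus stood beside epithelial keratins and claudins at background; the part of these markers in the result was not tested.

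Tspan2, a tetraspanin of the myelin-forming oligodendrocyte lineage, read 6.09 on the array labelled Venus-Mkx, 4.45 on the Venus array and 3.70 on the C3H10T1/2 array. It was 3.11-fold higher than Venus and, since the C3H10T1/2 value lay below the floor, at least 3.35-fold higher than C3H10T1/2. The other 2 probe sets ran the same way, with differences from Venus of 1.85 and 0.69 as read, where both control values lay below the floor. The Tspan2 value on the Venus array lay just above the floor, so the fold against Venus rests on a level close to background.

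**Figure D2:**
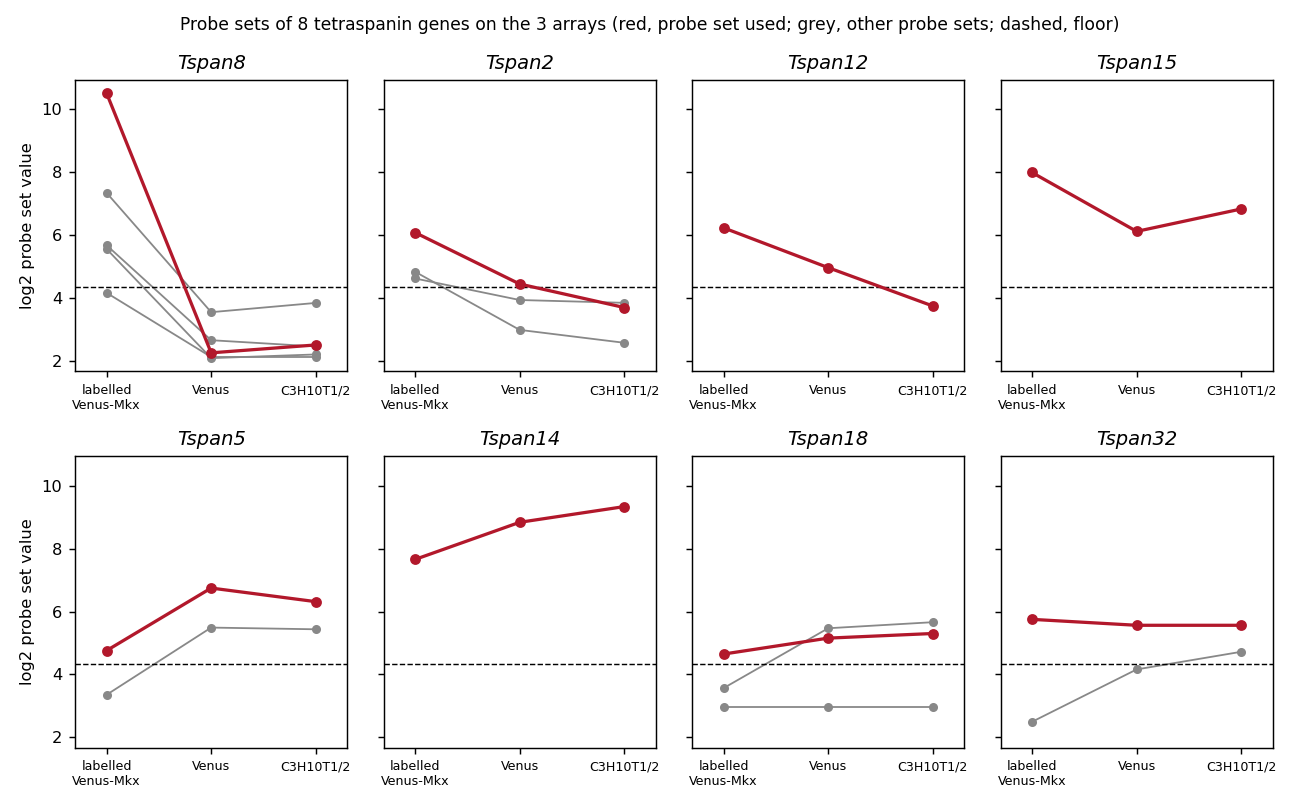
Log2 values (vertical axis) of every probe set of 8 tetraspanin genes on the 3 arrays (labelled Venus-Mkx, Venus and C3H10T1/2, from left to right), 1 per condition. Red is the probe set used for the gene, grey the other probe sets, and the dashed line the floor of 4.34. All 5 probe sets of Tspan8 are highest on the left, and the probe sets of Tspan18 and of Tspan32 differ in slope.

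Tspan12 is a co-receptor that strengthens the signal of the ligand Norrin through the receptor Fzd4 and its partner Lrp5, a pathway known from retinal vessels. Its only probe set, 1454604_s_at, read 6.24 on the array labelled Venus-Mkx, 4.97 on the Venus array and 3.75 on the C3H10T1/2 array. It was 2.41-fold higher than Venus and at least 3.72-fold higher than C3H10T1/2, whose value lay below the floor. Fzd4 ran the other way, with 5.003 on the array labelled Venus-Mkx, 7.31 on the Venus array and 8.48 on the C3H10T1/2 array. Both genes were therefore ordered by condition, in opposite directions. Fzd4 was 4.94-fold lower than Venus. Lrp5 differed from Venus by −0.11 and Lrp6, a related co-receptor gene, by 0.23, and Ndp, which encodes Norrin, was below the floor on all 3 arrays. Probe sets marked _s_at, such as that of Tspan12, may also read other transcripts.

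The TspanC8 group held genes counted in both directions. Its members bind the metalloprotease Adam10, which sheds Notch receptors, cadherins and other surface proteins, and they steer it out of the endoplasmic reticulum and towards different substrates. Tspan15, which directs Adam10 to N-cadherin, read 7.996 on the array labelled Venus-Mkx, 6.12 on the Venus array and 6.84 on the C3H10T1/2 array, so it was 3.67-fold higher than Venus and 2.23-fold higher than C3H10T1/2. All 3 values were well above the floor. Tspan5, which promotes Notch activation through Adam10, read 4.76 on the array labelled Venus-Mkx, 6.75 on the Venus array and 6.32 on the C3H10T1/2 array. This was 3.98-fold lower than Venus and 2.94-fold lower than C3H10T1/2. Its other probe set, 1431530_a_at, read 3.35, 5.49 and 5.44 in the same order of arrays, so it lay below the floor only in the first of these. Tspan14, which shares the role of Tspan5 in Adam10 maturation, read 7.66 on the array labelled Venus-Mkx, 8.84 on the Venus array and 9.34 on the C3H10T1/2 array. It was 2.27-fold lower than Venus and 3.21-fold lower than C3H10T1/2, by 1 probe set marked _s_at.

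Tspan17, the fourth measured member of the group, was above both controls by less than 2-fold. Its value was 8.79 on the array labelled Venus-Mkx, 8.15 on the Venus array and 7.88 on the C3H10T1/2 array, and its other probe set was 0.36 above Venus and 0.66 above C3H10T1/2. Tspan10 and Tspan33 were below the floor on all 3 arrays. Of the 6 TspanC8 genes, 1 was thus higher, 2 were lower, 1 was neither and 2 were not measured, where 6.82% of all measured genes were higher and 5.34% lower. Adam10 itself read 10.33 on the array labelled Venus-Mkx, 10.61 on the Venus array and 10.34 on the C3H10T1/2 array, within 1.21-fold of both. The differences among the partners of Adam10 stood beside a nearly level Adam10.

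**Figure D3:**
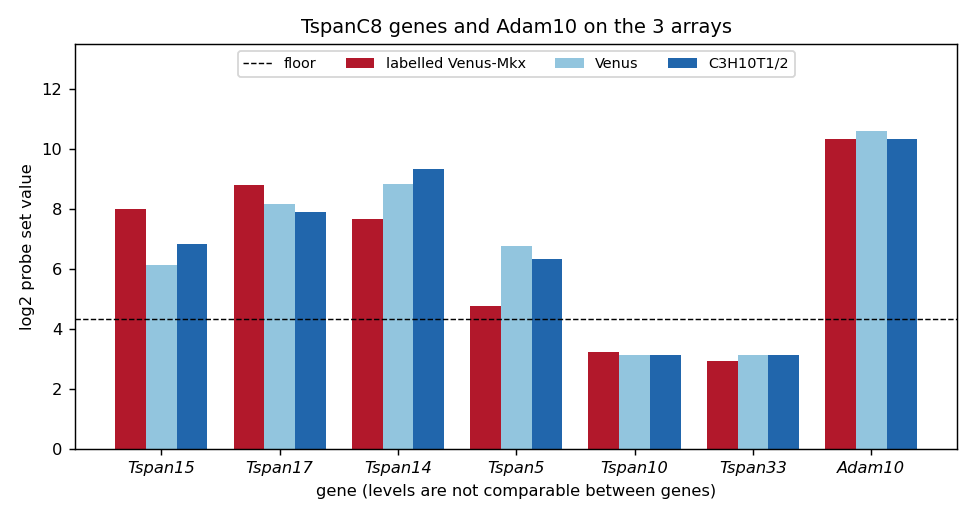
Log2 probe set values (vertical axis, from 0) of the 6 TspanC8 genes and of Adam10 on the 3 arrays (labelled Venus-Mkx, Venus and C3H10T1/2, from left to right), 1 per condition, with the floor of 4.34 dashed. Tspan15 is highest and Tspan5 and Tspan14 are lowest on the array labelled Venus-Mkx, while the 3 bars of Adam10 lie between 10.33 and 10.61. Levels cannot be set against each other between genes.

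The upstream windows of 2 higher and 2 lower genes are shown so that they can be compared; these 4 were picked after the motif matches were seen. Each is the 250 bases before the most upstream annotated start, from the RefSeq table on GRCm38.p6, read 5′ to 3′ on the gene's strand. Capitals mark a GC box (GGGCGG on either strand), the binding motif of Sp1-type factors.
Tspan8, higher, chr10:115817034-115817283, plus strand: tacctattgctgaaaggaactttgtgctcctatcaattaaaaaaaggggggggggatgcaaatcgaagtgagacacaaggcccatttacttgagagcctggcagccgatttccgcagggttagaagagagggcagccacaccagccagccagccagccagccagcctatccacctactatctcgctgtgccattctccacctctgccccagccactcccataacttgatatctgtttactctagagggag
Tspan2, higher, chr3:102734520-102734769, plus strand: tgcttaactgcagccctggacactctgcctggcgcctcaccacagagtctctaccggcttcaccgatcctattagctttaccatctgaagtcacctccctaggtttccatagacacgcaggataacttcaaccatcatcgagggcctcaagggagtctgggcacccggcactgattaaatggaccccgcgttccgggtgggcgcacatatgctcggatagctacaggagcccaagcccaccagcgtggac
Tspan5, lower, chr3:138741958-138742207, plus strand: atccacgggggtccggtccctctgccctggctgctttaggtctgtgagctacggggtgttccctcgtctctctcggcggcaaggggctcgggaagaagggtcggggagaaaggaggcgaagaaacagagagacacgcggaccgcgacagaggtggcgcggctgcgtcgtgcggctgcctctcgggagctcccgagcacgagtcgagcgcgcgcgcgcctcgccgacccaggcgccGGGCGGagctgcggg
Tspan14, lower, chr14:40966897-40967146, minus strand: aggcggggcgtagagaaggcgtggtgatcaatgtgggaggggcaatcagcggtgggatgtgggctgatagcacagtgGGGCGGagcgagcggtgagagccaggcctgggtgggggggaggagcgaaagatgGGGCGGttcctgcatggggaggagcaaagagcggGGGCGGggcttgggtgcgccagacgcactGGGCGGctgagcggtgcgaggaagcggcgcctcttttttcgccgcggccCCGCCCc

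The windows differed in base composition. Among the higher genes the GC content was 52.4% for Tspan8, 57.2% for Tspan2, 42% for Tspan12 and 63.2% for Tspan15. It was 70.8% for Tspan5 and 69.6% for Tspan14, the lower genes. Tspan17 and Tspan9, which were neither, had 70.8% and 72%, so high GC content was not limited to genes that were lower. The median was 58.6% over the 24 tetraspanins with an entry and 52% over 27025 genes. The windows of the higher genes held 4 (Tspan8), 12 (Tspan2), 5 (Tspan12) and 23 (Tspan15) CpG dinucleotides, against a median of 6 over all genes. Those of the lower genes held 33 (Tspan5) and 22 (Tspan14), and that of Tspan17, which was neither, held 22. The GC box occurred once in the Tspan5 window and 5 times in that of Tspan14, and in none of the windows of Tspan8, Tspan2, Tspan12 and Tspan15. It was present in 13 of the 24 tetraspanin promoters with an entry and in 33% of all. Cd81, Cd9 and Cd151, which differed by less than 2-fold, were among the 13, so the motif was not limited to genes that were lower. The core of the interferon-response motif (GAAANNGAA, both strands), searched because interferon genes differed between the conditions, was present in the windows of Cd9, Tspan6 and Tspan33, against 7.16% of all promoters, and in none of those of the 6 genes counted as higher or lower. The Tspan6 match lay within a long stretch of GAA repeats. The motif TATAAA, on either strand, was found in the window of Tspan12 only among the tetraspanins, against 13% of all. No overlap between these motifs was present in the windows shown. A match is a run of letters in a window and not a binding site.

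The vesicle and adhesion tetraspanins Cd9, Cd81, Cd82 and Cd151 were far above the floor on all 3 arrays and within 2-fold of both controls. Cd9, which acts in cell fusion and adhesion, read 10.33 on the array labelled Venus-Mkx, 10.92 on the Venus array and 10.65 on the C3H10T1/2 array, a value 1.51-fold lower than Venus. Cd82, a suppressor of cell motility, read 9.06 on the array labelled Venus-Mkx, 9.68 on the Venus array and 9.51 on the C3H10T1/2 array. Both genes were lowest on the array labelled Venus-Mkx, and their differences from Venus were −0.59 and −0.62. The median size of this difference was 0.59 over the 19 measured tetraspanins and 0.28 over all measured genes. Cd81, a partner of integrins, read 11.91 on the array labelled Venus-Mkx, 11.88 on the Venus array and 11.68 on the C3H10T1/2 array. Cd151, which binds the laminin receptors, read 11.16 on the array labelled Venus-Mkx and 11.22 on both controls, and its 6 probe sets differed from Venus by −0.08 to 0. The second probe set of Cd82 held the value 5.32 on every array, which shows a limit of the table: 24.6% of all probe sets, and 10 of the 56 of the tetraspanins, had equal values on all 3 arrays.

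Among the other measured genes, Tspan4 came nearest to 2-fold from Venus and Tspan6 to 2-fold from C3H10T1/2. Tspan4, a component of migrasomes, the vesicles that migrating cells leave on their retraction fibres, read 11.73 on the array labelled Venus-Mkx, 10.94 on the Venus array and 11.14 on the C3H10T1/2 array. It was 1.73-fold higher than Venus, and its log2 difference from C3H10T1/2 was 0.59. Tspan6 read 9.62 on the array labelled Venus-Mkx, 9.73 on the Venus array and 10.58 on the C3H10T1/2 array. Here both transduced cultures were below the untransduced one, and the array labelled Venus-Mkx was close to Venus. Its 2 probe sets differed from C3H10T1/2 by −0.96 and −0.92 and from Venus by −0.11 and −0.09. Tspan3 and Tspan31 were above both controls by 0.17 to 0.39 with the probe sets used. Tspan9 differed from Venus by −0.13, and by −0.72 with its other, dimmer probe set, which lay just under the floor, at 4.33, on the array labelled Venus-Mkx. Tspan11 read 4.27 on the array labelled Venus-Mkx, a value under the floor, against 4.78 on the Venus array and 4.81 on the C3H10T1/2 array.

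The probe sets of Tspan18 and Tspan32 disagreed by more than 2-fold as read in their difference from Venus. Each disagreement involved a value below the floor, so its size is not known. Tspan18, a tetraspanin of endothelial cells, read 4.65 on the array labelled Venus-Mkx, 5.16 on the Venus array and 5.30 on the C3H10T1/2 array by 1437095_at, the probe set used. By 1442174_at it read 3.56, 5.47 and 5.66 in the same order, a difference of −1.91 from Venus as read, or at least 1.13 below Venus on the log2 scale when the low value is set to the floor. The remaining probe set, 1429856_at, was below the floor with an equal value on all arrays. Whether Tspan18 was lower by 2-fold thus depends on the probe set. Tspan32 read 5.75 on the array labelled Venus-Mkx and 5.56 on both controls by 1431289_at. By 1418398_a_at, where only the C3H10T1/2 value reached the floor, it read 2.49 on the array labelled Venus-Mkx, 4.16 on the Venus array and 4.72 on the C3H10T1/2 array.

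**Figure D4:**
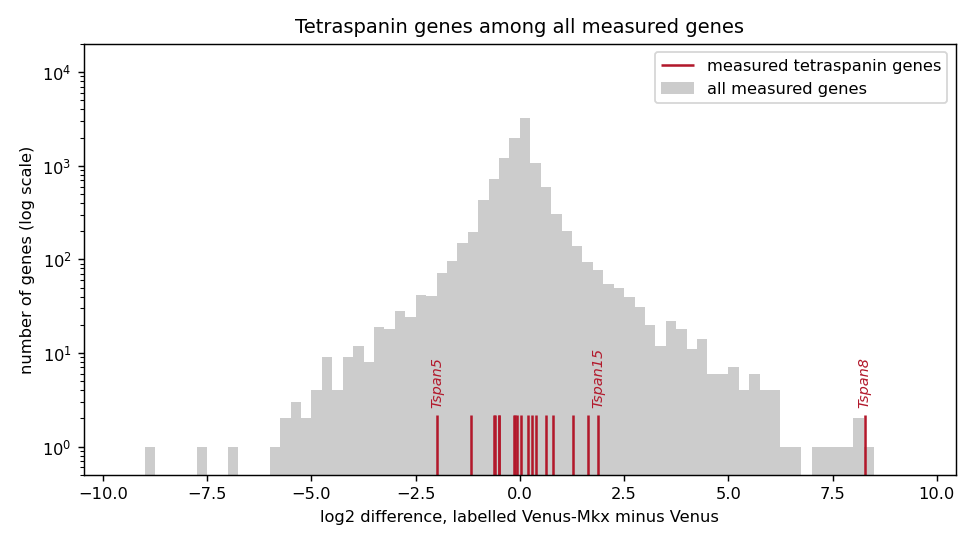
Number of measured genes (vertical axis, log scale) by log2 difference of the array labelled Venus-Mkx from Venus (horizontal axis, bins of 0.25), with the 19 measured tetraspanin genes as red lines, 1 array per condition. Tspan8 lies at the right end at 8.27 as read, from a Venus value below the floor, and the other tetraspanin genes lie between −1.99 (Tspan5) and 1.87 (Tspan15).

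The leukocyte tetraspanins were at background apart from Tspan32. Cd37 and Cd53, antigens of B cells and of leukocytes in general, were below the floor on all 3 arrays. Of 9 leukocyte markers with a probe set, Csf1r and Laptm5 reached the floor and Ptprc, Tyrobp, Adgre1, Itgam, Cd79a, Cd3e and Coro1a did not. Csf1r, the receptor of a macrophage growth factor, was 1.23 above Venus and 2.17 above C3H10T1/2. The summed level of the leukocyte list was 7.47 on the array labelled Venus-Mkx, 6.93 on the Venus array and 6.75 on the C3H10T1/2 array, as log2. Of 5 endothelial markers only Tek reached the floor, with 5.95 on the array labelled Venus-Mkx, 4.02 on the Venus array and 4.53 on the C3H10T1/2 array, while Pecam1 and Cdh5 were below it on all arrays. The list summed to 6.53 on the array labelled Venus-Mkx, 5.50 on the Venus array and 5.74 on the C3H10T1/2 array, as log2. The leukocyte and endothelial sums include values below the floor, and on the Venus array every endothelial value lay below it. The 6 tetraspanin genes that were not measured were Cd37, Cd53, Tspan1, Tspan10, Tspan13 and Tspan33, with values from 2.92 to 3.97.

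Between the control arrays all measured tetraspanins but Tspan12 lay within 2-fold as read. The median size of this difference was 0.22 for the 19 genes and 0.10 for all measured genes. Of the 19 genes, Tspan12 was at least 2-fold higher on the Venus array than on the C3H10T1/2 array as read, and none was at least 2-fold lower. Over all measured genes, 1.49% were higher and 0.555% lower by this measure. The C3H10T1/2 value of Tspan12 lay below the floor, so the difference is only shown to be at least 1.54-fold. The other 18 genes lay between −0.85 (Tspan6) and 0.75 (Tspan2, whose C3H10T1/2 value was below the floor). For Tspan15 this difference was −0.71. Tspan12 differed by 1.22 as read and by at least 0.63 on the log2 scale, so it cannot be ranked against Tspan6 and Tspan15.

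Several tetraspanin genes are neighbours in the genome. Cd151 and Tspan4 lie with 1 protein-coding gene between them on chromosome 7, and they differed from Venus by −0.06 and 0.79. Tspan32 and Cd81, with no protein-coding gene between them on the same chromosome, differed by 0.19 and 0.03. Tspan18 and Cd82 on chromosome 2 differed by −0.51 and −0.62 by the probe sets used, and Tspan11 and Tspan9 on chromosome 6 by −0.51 and −0.13.

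Few partners of the tetraspanins were counted as higher or lower, as was the case for all measured genes (6.82% higher, 5.34% lower). Of 6 measured integrin genes, Itga7, which encodes a laminin receptor chain of muscle, was higher and 5 were neither. It read 5.47 on the array labelled Venus-Mkx, 4.01 on the Venus array and 3.91 on the C3H10T1/2 array, which is at least 2.18-fold higher than Venus, and it was measured through the first of these arrays only. Itga6 differed from Venus by 0.06 and Itgb1, their common partner chain, by −0.53. Of 6 genes of immunoglobulin, protease and acyltransferase partners, Igsf3 was lower, by 2.86-fold from Venus, and 5 were neither, among them Igsf8 with a difference of 0.55 and Ptgfrn with −0.01, the main immunoglobulin partners of Cd9 and Cd81.

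Of 15 measured genes of vesicle sorting and release, Smpd3 was lower and 14 were neither, with a median difference from Venus of −0.14, against 5.34% lower and a median of 0.00 over all measured genes. Smpd3, a sphingomyelinase that makes ceramide for vesicle budding, read 3.996 on the array labelled Venus-Mkx, a value under the floor, against 5.90 on the Venus array and 5.57 on the C3H10T1/2 array, so it was at least 2.94-fold lower than Venus. Rab27b, a GTPase of vesicle docking, had log2 differences of −1.24 (Venus) and −0.93 (C3H10T1/2), and Sdcbp, the adaptor syntenin, of −0.77 and −0.87. Tsg101, of the sorting machinery, had −0.58 and −0.51. Lamp2, Flot1, Flot2, Vps4b and Hgs went the other way, above both controls by less than 2-fold. Lamp2 had 0.66 and 0.86, and Flot2 had 0.29 and 0.65. In the L6 family, which resembles tetraspanins in its fold but is not related to them, Tm4sf1 was the 1 measured gene of 4 and was lower, with 10.12 on the array labelled Venus-Mkx, 11.69 on the Venus array and 11.64 on the C3H10T1/2 array. Among the tetraspanins with other names, Rom1 of the photoreceptor disc rim was 1.17 above Venus and 0.79 above C3H10T1/2, and Upk1a, Upk1b and Prph2 were below the floor.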

How the data were processed

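RNA of 3 cultures was hybridized to 1 Affymetrix mouse genome array each. MAS 5.0 is named in the methods of the paper and RMA, with no version, in the submitters' processing notes, so which of them made the values is not settled. The log2 values deposited by the authors, from 1.44 to 14.00, have nearly the same distribution on each array and were used as they are. The table held 45101 probe sets; 64 controls were dropped, 34945 had 1 gene symbol, 932 several and 9160 none in GEO's platform annotation. Signal over background and the number of arrays limit the precision.

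Higher or lower means at least 2-fold from both controls, without a test. Where a value lay below the floor, a fold was computed with that value at the floor and given as "at least". The members and the lists of partners and markers were chosen with earlier results of these data known. Every member was accounted for. Values by array were given for members past 2-fold, those whose probe sets disagreed and the named groups. Genes near the 2-fold line, and the 4 promoters shown, were picked with their values in view. The counting rule was run on simulated arrays with planted changes well past 2-fold. Changes near the 2-fold line were not simulated, so counts near it were not checked in this way. Alternatives covered the floor, the probe sets per gene, the scale, the control and the fold. Promoters came from RefSeq on GRCm38.p6, as 1 window of 250 bases for each of 24 members. Python 3.11.15, NumPy 2.4.6, pandas 2.3.3 and matplotlib 3.10.9 were used.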

Additional observations from a re-analysis of the deposited data

How the results depend on the processing

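The 4 higher and 2 lower tetraspanin genes were the same with no floor, with the mean of all probe sets, with arrays centred on their medians, with quantile normalization, and against Venus or C3H10T1/2 alone. Centring and quantile normalization could hardly alter these counts, since the arrays already had nearly the same distribution. With the floor at the 75th percentile of all values, 13 genes were measured, of which Tspan8 and Tspan15 (2 genes) were higher, Tspan14 (1 gene) was lower, and 0 were at least 2-fold higher on the Venus array than on the C3H10T1/2 array. Without probe sets marked _x_at or _s_at, which leaves no probe set for Tspan12 and Tspan14, 3 genes were higher, 1 was lower (Tspan5) and 0 were higher in Venus. At 3-fold, 2 were higher (Tspan2 and Tspan8), 0 were lower and 0 were higher in Venus. At 1.5-fold, Tspan4 and Tspan17 joined the higher genes, and in Venus 2 genes were higher than in C3H10T1/2 (Tspan12 and Tspan2) and 2 lower (Tspan6 and Tspan15). The median difference from Venus ran from −0.02 to 0.06 and that from C3H10T1/2 from −0.02 to 0.18, so neither has a stable sign. Of 98 values of single genes under other probe sets or scales, 7 moved by more than 0.244, all with the mean of all probe sets. There Tspan8 differed from Venus by 4.12, Tspan2 by 1.39, Tspan18 by −0.80 and Tspan32, which changed sign, by −0.74. The yardstick of 0.244 is the SD over measured genes of Venus minus C3H10T1/2, divided by the square root of 2. These arrays are different conditions, so it also holds any difference between them and is not a replicate error. None of the 6 genes counted as higher or lower changed sign. No paired analysis was possible because each condition has 1 array, and for the same reason no replicate could be left out.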
